A study of Mus musculus with 15 samples.

Results

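The 6 genes described here, Spink8, Wfs1, Fibcd1, Mpped1, Pou3f1 and Man1a, are known markers of CA1 pyramidal neurons of the mouse hippocampus. They were taken by name, with every probe whose accession resolves to one of these symbols, and make up 6 of the 22872 genes tested. Total RNA of the whole hippocampus, from both hemispheres of male C57BL/6 mice of about 2.5 months, was measured on 15 single-colour arrays. The control group, dflox (4 arrays), carries floxed alleles of both corticosteroid receptor genes and no Cre, as the design is read here. Emx1-Cre drove deletion of the glucocorticoid receptor (GR, gene Nr3c1) in GREmx1-cre (4 arrays), of the mineralocorticoid receptor (MR, gene Nr3c2) in MREmx1-cre (4 arrays) and of both in GRMREmx1-cre (3 arrays). As the design is read here, GREmx1-cre mice lack the floxed Nr3c2 allele and MREmx1-cre mice the floxed Nr3c1 allele that dflox mice carry, while GRMREmx1-cre differs from dflox by Cre alone. Emx1-Cre acts in the excitatory neurons and glia of the dorsal forebrain, neocortex included, so the loss is not confined to CA1 or to the adult brain.

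CA1 pyramidal neurons are the main output cells of the hippocampus proper, and the genes that mark them separate them from CA2, CA3 and the granule cells of the dentate gyrus. GR and MR are hormone-activated transcription factors that both bind corticosterone, and MR, which binds it with the higher affinity, is strongly expressed in hippocampal neurons. The 6 markers have unrelated products. Spink8 encodes a putative secreted serine protease inhibitor of the Kazal type. Wfs1 encodes wolframin, a membrane protein of the endoplasmic reticulum that acts in calcium handling and the stress response. Fibcd1 encodes a membrane receptor for acetylated sugars, Mpped1 a metallophosphoesterase-domain protein, Pou3f1 (Oct6) a POU-domain transcription factor, and Man1a a Golgi alpha-mannosidase that trims N-linked glycans.

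RefSeq promoter sequences (build GRCm38.p6, 250 bases before to 50 after a gene's start) matched 4 of the 6 genes, with 5 promoters. Those of Wfs1 and Fibcd1 are shown because the levels of both genes differed between the groups, in opposite directions in GRMREmx1-cre. That of Wfs1 is chr5:36988933-36989232 on the minus strand and that of Fibcd1 chr2:31845956-31846255 on the minus strand. Both are written 5′ to 3′ along the gene, with the 50 bases after the start in capitals.
Wfs1: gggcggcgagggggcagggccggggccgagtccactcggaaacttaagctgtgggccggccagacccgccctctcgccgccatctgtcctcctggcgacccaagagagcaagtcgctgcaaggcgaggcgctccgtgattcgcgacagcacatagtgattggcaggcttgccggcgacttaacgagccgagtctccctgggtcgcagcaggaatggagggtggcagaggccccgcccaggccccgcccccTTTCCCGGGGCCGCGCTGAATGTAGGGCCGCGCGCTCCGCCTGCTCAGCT
Fibcd1: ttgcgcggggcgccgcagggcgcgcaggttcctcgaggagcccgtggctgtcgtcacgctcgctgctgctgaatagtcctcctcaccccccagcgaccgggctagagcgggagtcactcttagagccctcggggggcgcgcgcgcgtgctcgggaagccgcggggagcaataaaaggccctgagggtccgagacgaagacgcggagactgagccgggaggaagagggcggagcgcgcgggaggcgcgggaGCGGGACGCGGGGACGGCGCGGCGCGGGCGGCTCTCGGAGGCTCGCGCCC
Both receptors recognise the short element AGAACA, which on the other strand reads TGTTCT. It was found on neither strand of any of the 5 promoters, while 19.0% of 32851 RefSeq promoters of the same length hold it. The full palindrome, in which AGAACA is followed after 3 bases by TGTTCT and which thus contains this element, occurs in 3 of those promoters and in none of the 5. The Wfs1 promoter has 70% G and C bases with 30 CpG dinucleotides and the Fibcd1 promoter 74.3% with 46, against medians of 52.7% and 7 over all promoters. The Man1a promoter has 72.7% with 38. The 2 promoters of Mpped1 differ, with 89.3% and 59 in one and 47.3% and 3 in the other.

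Levels below are log2 intensities relative to the 75th percentile of the same array, so that 0 is the level of the probe at that percentile and 1 unit is a doubling. Differences are log2 differences between group means with their standard error (SE) from limma, fitted over all 15 arrays. A difference passed the test when limma's adjusted p, after Benjamini-Hochberg adjustment over all genes tested, was below 0.05. The 75th percentile of intensity ran from 821 to 1027 over the arrays, and 28092 to 30215 probes per array were well above background. Nr3c1 stood at 21.2% of its dflox level in GREmx1-cre, 32.1% in GRMREmx1-cre and 145% in MREmx1-cre. The Nr3c2 probe, which may lie outside the deleted exons and so does not check the loss of MR, stood at -0.11 ± 0.0859 in MREmx1-cre (adjusted p = 0.48), -0.31 ± 0.0928 in GRMREmx1-cre (0.0394) and 0.42 ± 0.0859 in GREmx1-cre (0.0212). The arrays of a genotype shared a slide that held no other genotype, so no comparison can tell apart genotype and slide. The labels number the replicates but do not say that each came from its own mouse, so the p-values measure the spread between these arrays. In whole tissue, fewer CA1 cells and less RNA per CA1 cell cannot be told apart. All 5 choroid plexus genes were low on MREmx1-cre replicate 2 (list mean -4.04, against -0.510 to 1.26 on the others). On GREmx1-cre replicate 1 Synpo2, listed among the thalamus and habenula genes, stood 6.11 above its mean over all arrays, while the other 4 genes of that list lay between -0.26 and 0.24. Calls below that change without these 2 arrays are named.

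All 6 genes were well above background on all 15 arrays, and none was saturated. The comparisons with dflox divided them into 3 patterns. Spink8 fell wherever MR had been deleted and most where GR was gone too. Wfs1 rose wherever MR had been deleted, and Fibcd1 fell in GRMREmx1-cre with a low margin. With normexp background correction the Wfs1 differences stayed positive in MREmx1-cre (0.61) and GRMREmx1-cre (0.26), but neither passed. The one in GRMREmx1-cre turned only relative to the median of all genes, as given with its values. Mpped1, Pou3f1 and Man1a passed the test in none of the 7 comparisons with the probe used for each gene. No member passed in GREmx1-cre against dflox (0 of 6, with 3.15% of all genes called). In MREmx1-cre against dflox 1 member rose and 1 fell, with 6.8% of all genes called, 4.21% higher and 2.6% lower. In GRMREmx1-cre against dflox 1 rose and 2 fell, with 16.3% of all genes called, 11.4% higher and 4.84% lower. The median difference of the 6 was 0.03 in GREmx1-cre, 0.00 in MREmx1-cre and -0.04 in GRMREmx1-cre, beside medians of 0.02, 0.04 and 0.03 over all genes. These comparisons share the dflox arrays.

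**Figure D1:**
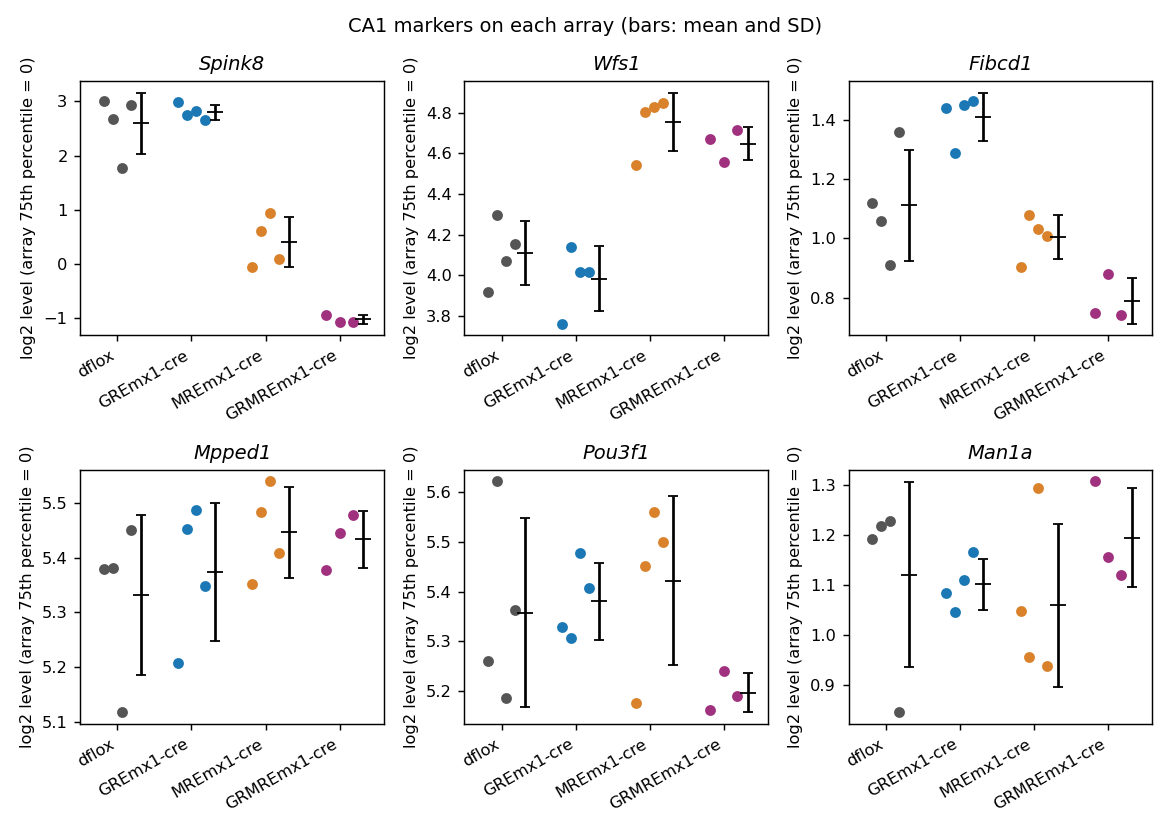
Level of each CA1 marker on each array (y axis, log2 intensity with the array's 75th percentile at 0; each panel has its own range), by genotype, with the mean and SD beside the points and replicates in number order. The 3 GRMREmx1-cre arrays lie below all others for Spink8, from -1.07 to -0.94, and the MREmx1-cre and GRMREmx1-cre arrays lie above all others for Wfs1, from 4.54 to 4.85.

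Spink8, the putative protease inhibitor, varied most. Its levels were 3.0, 2.67, 1.76 and 2.93 on dflox replicates 1 to 4, and 2.98, 2.74, 2.82 and 2.65 on the GREmx1-cre arrays. On the MREmx1-cre arrays they were -0.06, 0.61, 0.94 and 0.10, and on the GRMREmx1-cre arrays -0.94, -1.06 and -1.07. The dflox and GREmx1-cre arrays overlapped, every MREmx1-cre array lay below both of these groups, and every GRMREmx1-cre array lay below every other array. Group means were 2.59 ± 0.569 (SD, n = 4) in dflox, 2.80 ± 0.141 (n = 4) in GREmx1-cre, 0.40 ± 0.460 (n = 4) in MREmx1-cre and -1.02 ± 0.0750 (n = 3) in GRMREmx1-cre.

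Against dflox, Spink8 fell 4.57-fold in MREmx1-cre (log2 difference -2.19 ± 0.259, limma's adjusted p = 0.000521), to 21.9% of the control level. It was there the gene with the 13th largest fall of the 22872 tested. In GRMREmx1-cre it fell 12.2-fold (-3.61 ± 0.279, adjusted p = 1.35e-05), to 8.17%, the 3rd largest fall. In GREmx1-cre the difference was 0.21 ± 0.259 (adjusted p = 0.719, 95% interval -0.35 to 0.77), and it turned to -0.07 without dflox replicate 3, the lowest control array. The level in GRMREmx1-cre was also below that in MREmx1-cre (-1.42 ± 0.279, adjusted p = 0.0174, 2.68-fold). That difference did not pass without GRMREmx1-cre replicate 2 (-1.40, adjusted p = 0.0798) or replicate 3 (-1.40, 0.0629), nor without MREmx1-cre replicate 2 and GREmx1-cre replicate 1 together (-1.35, 0.052). Against GREmx1-cre, Spink8 was 14.1-fold lower in GRMREmx1-cre (-3.82 ± 0.279, adjusted p = 1.04e-05) and 5.27-fold lower in MREmx1-cre (-2.40 ± 0.259, adjusted p = 0.000205).

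Wfs1, which encodes wolframin, moved the other way. On dflox replicates 1 to 4 its levels were 3.92, 4.30, 4.07 and 4.15, and on the GREmx1-cre arrays 3.76, 4.14, 4.02 and 4.02. They were 4.54, 4.81, 4.83 and 4.85 on the MREmx1-cre arrays and 4.67, 4.56 and 4.72 on the GRMREmx1-cre arrays. Every array of the MR-deleted groups lay above every array with MR, the groups with MR overlapped each other, and so did the groups without it. The means were 4.11 ± 0.159 (SD, n = 4) in dflox, 3.98 ± 0.159 (n = 4) in GREmx1-cre, 4.76 ± 0.144 (n = 4) in MREmx1-cre and 4.65 ± 0.0813 (n = 3) in GRMREmx1-cre.

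Wfs1 rose 1.57-fold in MREmx1-cre (0.65 ± 0.0993, limma's adjusted p = 0.00235) and 1.45-fold in GRMREmx1-cre (0.54 ± 0.107, adjusted p = 0.00469), both against dflox. Against GREmx1-cre it was 1.71-fold higher in MREmx1-cre (0.77 ± 0.0993, adjusted p = 0.000571) and 1.58-fold higher in GRMREmx1-cre (0.66 ± 0.107, adjusted p = 0.00152). The GRMREmx1-cre level differed from that of MREmx1-cre by -0.11 ± 0.107 (adjusted p = 0.673, 95% interval -0.34 to 0.12), and that of GREmx1-cre from dflox by -0.13 ± 0.0993 (adjusted p = 0.535). With normexp background correction, Wfs1 stood at 0.61 in MREmx1-cre (adjusted p = 0.144) and 0.26 in GRMREmx1-cre (adjusted p = 0.177). That correction moved the median of all genes in GRMREmx1-cre against dflox from 0.03 to 0.42. Relative to the median of all genes Wfs1 turned to -0.16 there, while it stood at 0.57 in MREmx1-cre. The difference between GRMREmx1-cre and GREmx1-cre did not pass with normexp either (0.38, adjusted p = 0.0583).

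Fibcd1, the receptor for acetylated sugars, was highest in GREmx1-cre and lowest in GRMREmx1-cre. Its levels were 1.12, 1.06, 0.91 and 1.36 on dflox replicates 1 to 4, and 1.44, 1.29, 1.45 and 1.46 on the GREmx1-cre arrays. They were 0.90, 1.08, 1.03 and 1.01 on the MREmx1-cre arrays and 0.75, 0.88 and 0.74 on the GRMREmx1-cre arrays. All GRMREmx1-cre arrays lay below all others, and the dflox arrays overlapped both single deletions. The means were 1.11 ± 0.187 (SD, n = 4) in dflox, 1.41 ± 0.0819 (n = 4) in GREmx1-cre, 1.01 ± 0.0741 (n = 4) in MREmx1-cre and 0.79 ± 0.0774 (n = 3) in GRMREmx1-cre.

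Fibcd1 fell to 80.0% of its dflox level in GRMREmx1-cre (-0.32 ± 0.09, limma's adjusted p = 0.0283). It no longer passed after leaving out dflox replicate 1, dflox replicate 4, GRMREmx1-cre replicate 1 or GRMREmx1-cre replicate 3 (differences -0.32, -0.24, -0.30 and -0.30), with only these groups in the fit (adjusted p = 0.104), and with the replicate number as a block (-0.29, adjusted p = 0.0561). In GREmx1-cre against dflox the difference was 0.30 ± 0.0833 (adjusted p = 0.073), which passed without dflox replicate 4 (0.38, adjusted p = 0.016). In MREmx1-cre against dflox it was -0.11 ± 0.0833 (adjusted p = 0.502). The contrasts with GREmx1-cre were larger. Fibcd1 was 1.54-fold lower in GRMREmx1-cre than in GREmx1-cre (-0.62 ± 0.09, adjusted p = 0.000809) and 1.32-fold lower in MREmx1-cre than in GREmx1-cre (-0.40 ± 0.0833, adjusted p = 0.0097), the latter not with normexp background correction (-0.40, adjusted p = 0.111). The GRMREmx1-cre level differed from that of MREmx1-cre by -0.22 ± 0.09 (adjusted p = 0.239).

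**Figure D2:**
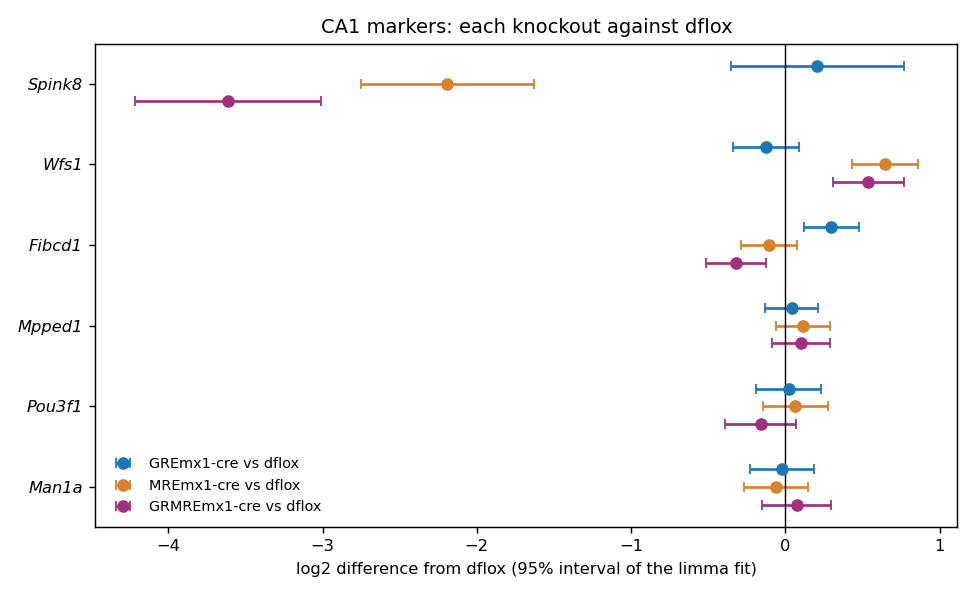
Log2 difference of each knockout from dflox (x axis) for the 6 CA1 markers (y axis), with 95% intervals from the limma fit; the 3 comparisons share the dflox arrays. Spink8 lies at -2.19 in MREmx1-cre and -3.61 in GRMREmx1-cre, Wfs1 at 0.65 and 0.54 (the latter turned to -0.16 relative to the median of all genes with normexp), and every point of Mpped1, Pou3f1 and Man1a lies between -0.16 and 0.11.

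Mpped1, the metallophosphoesterase-domain gene, had levels of 5.38, 5.38, 5.12 and 5.45 on the dflox arrays, 5.21, 5.45, 5.49 and 5.35 in GREmx1-cre, 5.35, 5.48, 5.54 and 5.41 in MREmx1-cre, and 5.38, 5.44 and 5.48 in GRMREmx1-cre. The groups overlapped in every pairing. Its differences from dflox were 0.04 ± 0.0797 in GREmx1-cre, 0.11 ± 0.0797 in MREmx1-cre and 0.10 ± 0.0861 in GRMREmx1-cre (limma's adjusted p = 0.828, 0.441 and 0.477). The 95% interval in GRMREmx1-cre ran from -0.08 to 0.29.

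Pou3f1, the POU-domain transcription factor, had levels of 5.26, 5.62, 5.19 and 5.36 in dflox, 5.33, 5.31, 5.48 and 5.41 in GREmx1-cre, 5.18, 5.45, 5.56 and 5.50 in MREmx1-cre, and 5.16, 5.24 and 5.19 in GRMREmx1-cre. The GRMREmx1-cre arrays lay below all GREmx1-cre arrays but overlapped the other groups. Differences from dflox were 0.02 ± 0.0971 in GREmx1-cre, 0.06 ± 0.0971 in MREmx1-cre and -0.16 ± 0.105 in GRMREmx1-cre (limma's adjusted p = 0.936, 0.754 and 0.343). The last of these had a 95% interval of -0.39 to 0.07. With normexp background correction it passed the test at -0.42 (adjusted p = 0.0312), which was -0.84 relative to the median of all genes. The other members also lay below that median there, Spink8 at -3.49, Fibcd1 at -0.89, Mpped1 at -0.66, Man1a at -0.59 and Wfs1 at -0.16.

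Man1a, the mannosidase, is the one member with several probes. On the brightest, A_51_P287418, used in all counts above, the levels were 1.19, 1.22, 1.23 and 0.84 in dflox, 1.08, 1.05, 1.11 and 1.17 in GREmx1-cre, 1.05, 0.96, 1.29 and 0.94 in MREmx1-cre, and 1.31, 1.16 and 1.12 in GRMREmx1-cre. The groups overlapped, and the differences from dflox were -0.02 ± 0.0959, -0.06 ± 0.0959 and 0.07 ± 0.104 in GREmx1-cre, MREmx1-cre and GRMREmx1-cre (limma's adjusted p = 0.944, 0.759 and 0.689). The other probes disagreed with it in part. Probe A_52_P171019 was lower on every GREmx1-cre array (-3.81 to -3.37) than on every dflox array (-3.31 to -2.93). In a fit over all 30882 probes it was lower in GREmx1-cre than in dflox (-0.47 ± 0.111, adjusted p = 0.0434), and higher than in GREmx1-cre in both MREmx1-cre (0.49 ± 0.111, adjusted p = 0.0157) and GRMREmx1-cre (0.53 ± 0.120, adjusted p = 0.0109). Probe A_52_P260105 passed in none of these comparisons (-0.20 ± 0.173 in GREmx1-cre against dflox, adjusted p = 0.585). The mean of the 3 probes differed by -0.23 in GREmx1-cre against dflox (adjusted p = 0.262). All 3 probes carry the same transcript accession, and where on the transcript each lies was not analysed here.

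**Figure D3:**
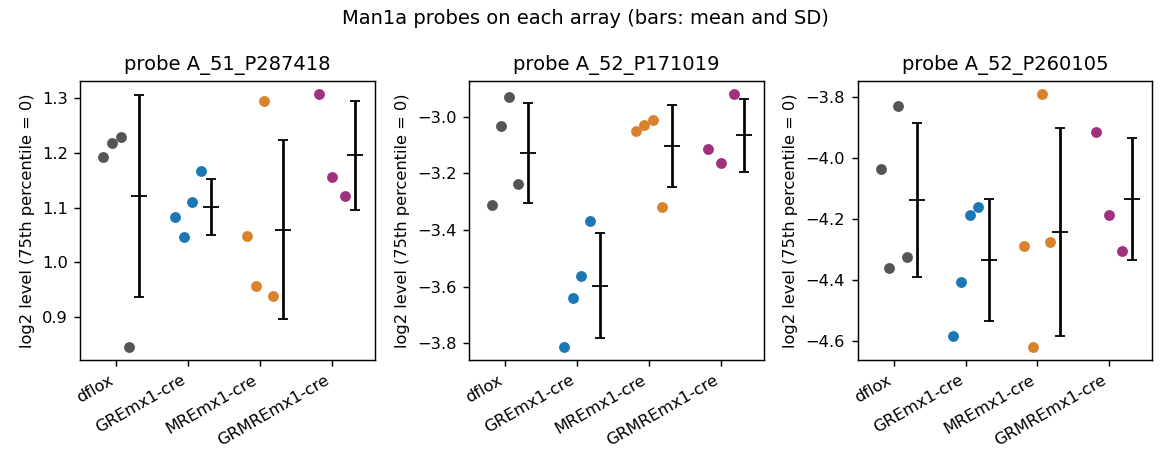
Level of the 3 Man1a probes on each array (y axis, log2 intensity with the array's 75th percentile at 0; each panel has its own range), by genotype, with mean and SD. On probe A_52_P171019 the GREmx1-cre arrays, from -3.81 to -3.37, lie below all other arrays, while on A_51_P287418 and A_52_P260105 the groups overlap.

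The knockouts were also compared with each other. GRMREmx1-cre against GREmx1-cre, which differ by the deletion of MR where GR is absent, gave 1 member up and 2 down, with 16.1% of all genes called, 9.23% higher and 6.91% lower. In this comparison 4 members did not overlap between the groups, against 29.7% of all genes. MREmx1-cre against GREmx1-cre also gave 1 up and 2 down, with 9.33% of all genes called, 4.91% higher and 4.42% lower. These 3 did not overlap either, as was the case for 15.8% of all genes. GRMREmx1-cre against MREmx1-cre gave Spink8 alone, lower, with 2.98% of all genes called and 0.625% lower, and Fibcd1 joined it in not overlapping (2 of 6, with 17.1% of all genes). Against dflox the members that did not overlap were 0 of 6 in GREmx1-cre (12.7% of all genes), 2 in MREmx1-cre (13.8%) and 3 in GRMREmx1-cre (29.4%).

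The interaction asks whether the joint loss differs from the sum of the single losses on the log2 scale. No member passed (0 of 6, with 1.29% of all genes called by limma). For Spink8 the single differences summed to -1.99 and the joint difference was -3.61, an interaction of -1.63 ± 0.381 (adjusted p = 0.0581, unadjusted p = 0.000958). For Fibcd1 the sum was 0.19 and the joint difference -0.32, an interaction of -0.51 ± 0.123 (adjusted p = 0.0628, unadjusted p = 0.0011). For Wfs1 the sum, 0.52, lay beside the joint difference, 0.54 (interaction 0.02 ± 0.146, 95% interval -0.30 to 0.33). Spink8 passed without MREmx1-cre replicate 1 (-1.78, adjusted p = 0.0428) and Fibcd1 without dflox replicate 4 (-0.60, adjusted p = 0.02). Both passed when only genes well above background on all 15 arrays were tested (adjusted p = 0.0419 and 0.0486).

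**Figure D4:**
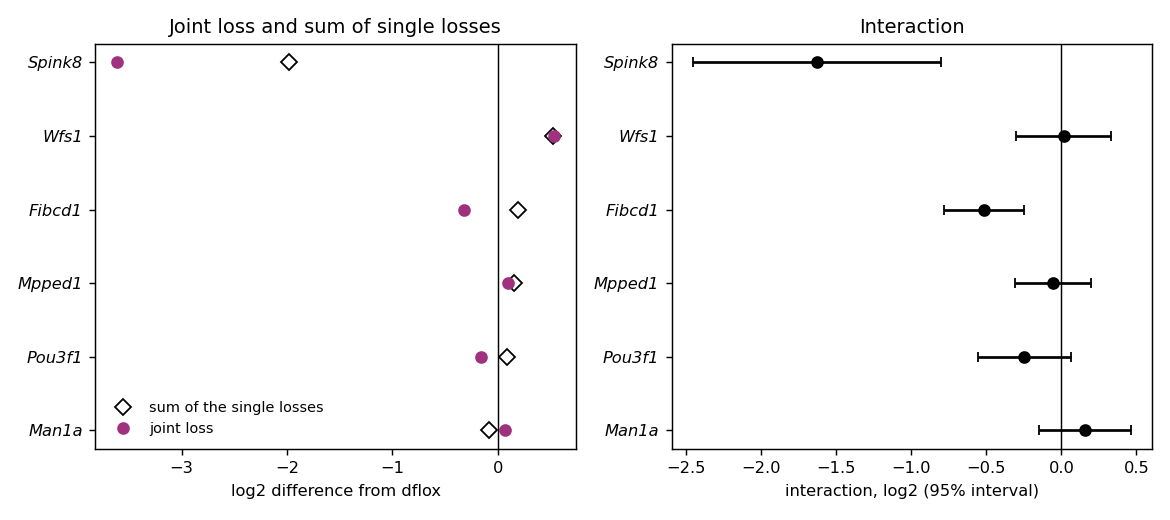
Left, the difference of GRMREmx1-cre from dflox (filled points) and the sum of the differences of GREmx1-cre and MREmx1-cre from dflox (open diamonds) for each CA1 marker, on the log2 scale; right, the interaction with its 95% interval. Spink8 has a sum of -1.99 and a joint difference of -3.61, while for Wfs1 the values 0.52 and 0.54 coincide.

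Within the groups the members other than Man1a mostly varied together. Among the dflox arrays, replicate 3 had the lowest level of Spink8, Fibcd1, Mpped1 and Pou3f1 but the highest of Man1a. The mean of the 6 genes, each relative to its mean over all arrays, was -0.06 on that array and 0.20 to 0.27 on the other dflox arrays, and the mean of 8 glutamatergic neuron genes was also lowest there (-0.07, against 0.09 to 0.17). Without it Spink8 stood at -2.47 in MREmx1-cre and -3.89 in GRMREmx1-cre (limma's adjusted p = 4.24e-05 and 1.65e-06). As a description over 15 arrays that share their groups, the Pearson correlation of Spink8 with Wfs1 was -0.82 over all arrays and 0.08 once group means were removed. For Spink8 with Fibcd1 these values were 0.84 and 0.64, and for Spink8 with Mpped1 -0.23 and 0.66. Once group means were removed, the pairs of Pou3f1 with Wfs1, Mpped1, Spink8 and Fibcd1 stood at 0.65, 0.55, 0.47 and 0.39, and both Wfs1 and Fibcd1 with Mpped1 at 0.52. Wfs1 with Fibcd1 stood at -0.0047, and Man1a ranged from -0.50 with Fibcd1 to 0.11 with Pou3f1.

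Genes with the most similar levels over the 15 arrays were sought among 14339 genes well above background on all of them, by Pearson correlation and as a description. For Spink8 they were Hpca, the neuronal calcium sensor hippocalcin (r = 0.98), Lefty1, a secreted TGF-beta family member (0.98), and Adora1, the adenosine A1 receptor (0.98). Hpca differed from dflox by 0.17, -0.95 and -1.37 in GREmx1-cre, MREmx1-cre and GRMREmx1-cre, and Lefty1 by 0.15, -1.05 and -2.03. Closest to Wfs1 were Marchf4, a membrane ubiquitin ligase (0.97), the sialyltransferase gene St8sia5 (0.97) and the potassium channel gene Kcna6 (0.96). Closest to Fibcd1 were Chrd, the BMP antagonist chordin (0.96), the tyrosine kinase gene Src (0.93) and Stoml1 (0.93). Mpped1, Pou3f1 and Man1a, which passed in no comparison with the probe used, had nearest genes with lower correlations. These ran from 0.81 for Cdca5 with Man1a to 0.93 for Map11 with Pou3f1.

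A further list of 8 CA1 markers, Tyro3, Lefty1, Ccn3, Dcn, Htr2c, Grp, Neurod6 and Zbtb20, was read from the same fit. None passed in GREmx1-cre against dflox. Lefty1 fell in MREmx1-cre (-1.05 ± 0.207, limma's adjusted p = 0.00985) and in GRMREmx1-cre (-2.03 ± 0.223, adjusted p = 0.000138), with levels of -0.01 to 0.85 in dflox, -1.02 to -0.01 in MREmx1-cre and -1.51 to -1.42 in GRMREmx1-cre. Tyro3, a receptor tyrosine kinase, rose in both (0.51 ± 0.0807, adjusted p = 0.00296, and 0.39 ± 0.0872, adjusted p = 0.00846), and its 2 other probes stood at 0.46 and 0.01 in MREmx1-cre. Dcn, the proteoglycan decorin, rose in GRMREmx1-cre (0.84 ± 0.255, adjusted p = 0.0439), in a fit that dropped 1 of the 3 GRMREmx1-cre arrays, where its spot carried an outlier flag. With normexp background correction, relative to the median of all genes, Tyro3 turned to -0.27 in GRMREmx1-cre and Dcn came to 0.03. The other 5 genes lay between -0.54 and 0.40 in MREmx1-cre and between -0.43 and 0.35 in GRMREmx1-cre, and none passed. In all, 1 of the 8 rose and 1 fell in MREmx1-cre, and 2 rose and 1 fell in GRMREmx1-cre, with medians of -0.11 and -0.15 beside 0.04 and 0.03 over all genes. Of all genes, 4.21% rose and 2.6% fell in MREmx1-cre, and 11.4% rose and 4.84% fell in GRMREmx1-cre.

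Markers of the other hippocampal fields are given beside these. Against dflox, 4.21% of all genes rose and 2.6% fell in MREmx1-cre, and 11.4% rose and 4.84% fell in GRMREmx1-cre. Of 9 CA2 markers, 6 fell in MREmx1-cre and the same number in GRMREmx1-cre, with medians of -0.58 and -0.75. Among them were Amigo2, an adhesion molecule (-1.31 and -1.19), Necab2, a neuronal calcium-binding protein (-1.0 and -1.02), and Ccdc3 (-0.58 and -1.24). Of the 9 CA2 markers, 8 were well above background on all 15 arrays. The other was so on 0 dflox arrays, 1 array of each single knockout and all 3 GRMREmx1-cre arrays. Of 6 CA3 markers tested, 5 were well above background on all 15 arrays. The synaptic scaffold gene Homer3 and the kainate receptor gene Grik4 fell in both MREmx1-cre and GRMREmx1-cre. Homer3 differed by -0.91 and -1.02, and it rose in GREmx1-cre (0.60 ± 0.117, limma's adjusted p = 0.018). Of 9 dentate granule cell markers tested, 3 fell and 1 rose in MREmx1-cre, and 5 fell and 1 rose in GRMREmx1-cre. The desmosomal gene Dsp showed the lowest values, -2.48 and -3.02. With normexp, 3 of these 6 calls in GRMREmx1-cre turned relative to the median of all genes, Npnt from -1.68 to 0.49, Tdo2 from -0.93 to 0.07 and Rasl10a from 0.41 to -0.28. Calb1, the calcium buffer calbindin, found in granule cells and in part of the CA1 pyramidal cells, fell by 1.39 in MREmx1-cre and by 1.53 in GRMREmx1-cre on the log2 scale (adjusted p = 3.95e-05 and 1.35e-05).

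Markers of other cells and regions that a dissected hippocampus could hold were read on each array, as means over a list relative to all arrays. In GRMREmx1-cre against dflox 11.4% of all genes rose and 4.84% fell, in MREmx1-cre 4.21% and 2.6%, and in GREmx1-cre 3.15% were called. Of 8 glutamatergic neuron genes, 4 fell in GRMREmx1-cre, among them Camk2a (-0.54), though its other probe stood at 0.07. Their list mean ran from -0.241 to -0.154 in GRMREmx1-cre and from -0.070 to 0.175 in dflox. Of 5 astrocyte markers, Aqp4, Gja1 and Gfap rose in GRMREmx1-cre (0.76, 0.37 and 0.43). With normexp these came to 0.05, -0.24 and -0.22 relative to the median of all genes. Aqp4 also rose in GREmx1-cre (0.43) and Gfap in MREmx1-cre (0.34), and both kept their direction with normexp. The astrocyte list mean was 0.129 to 0.298 in GRMREmx1-cre, against -0.190 to -0.056 in dflox. Of 6 neocortex markers, Rspo1 rose in MREmx1-cre (0.92) and GRMREmx1-cre (1.09). The list mean was 0.191 to 0.280 in GRMREmx1-cre, -0.031 to 0.265 in MREmx1-cre and -0.197 to -0.028 in dflox. Both subiculum markers, Fn1 and Nts, were higher in GRMREmx1-cre than in GREmx1-cre (median 0.63), as were 9.23% of all genes. In MREmx1-cre 1 of the 2 was higher than in GREmx1-cre (4.91% of all genes). Neither passed against dflox. The subiculum list mean was 0.186 to 0.384 in GRMREmx1-cre, -0.030 to 0.419 in MREmx1-cre, -0.531 to -0.207 in GREmx1-cre and -0.292 to 0.272 in dflox. Of 4 microglia markers, Cx3cr1 rose in MREmx1-cre (0.45, with its other probe at 0.29 and not passing) and Csf1r in GRMREmx1-cre (0.35, turning to -0.34 relative to the median of all genes with normexp). The microglia list mean was 0.107 to 0.138 in MREmx1-cre and 0.058 to 0.267 in GRMREmx1-cre, both above the dflox range of -0.178 to -0.052. In GRMREmx1-cre against dflox, 2 of 7 striatum markers rose and 1 fell (11.4% and 4.84% of all genes). There 2 of 5 thalamus and habenula markers rose and 1 of 4 fibroblast markers fell. With normexp, 1 striatum call and 1 thalamus and habenula call there turned relative to the median of all genes. In MREmx1-cre 1 rose and 1 fell in both the striatum and the thalamus lists, and 1 fibroblast marker fell. In GREmx1-cre 2 fibroblast markers fell. All genes of the astrocyte, neocortex, subiculum and microglia lists were well above background on all 15 arrays, so no defining marker of these lists was at background in any group. The part that a different share of cells or of neighbouring tissue has in the Spink8, Wfs1 and Fibcd1 values was not tested.

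**Figure D5:**
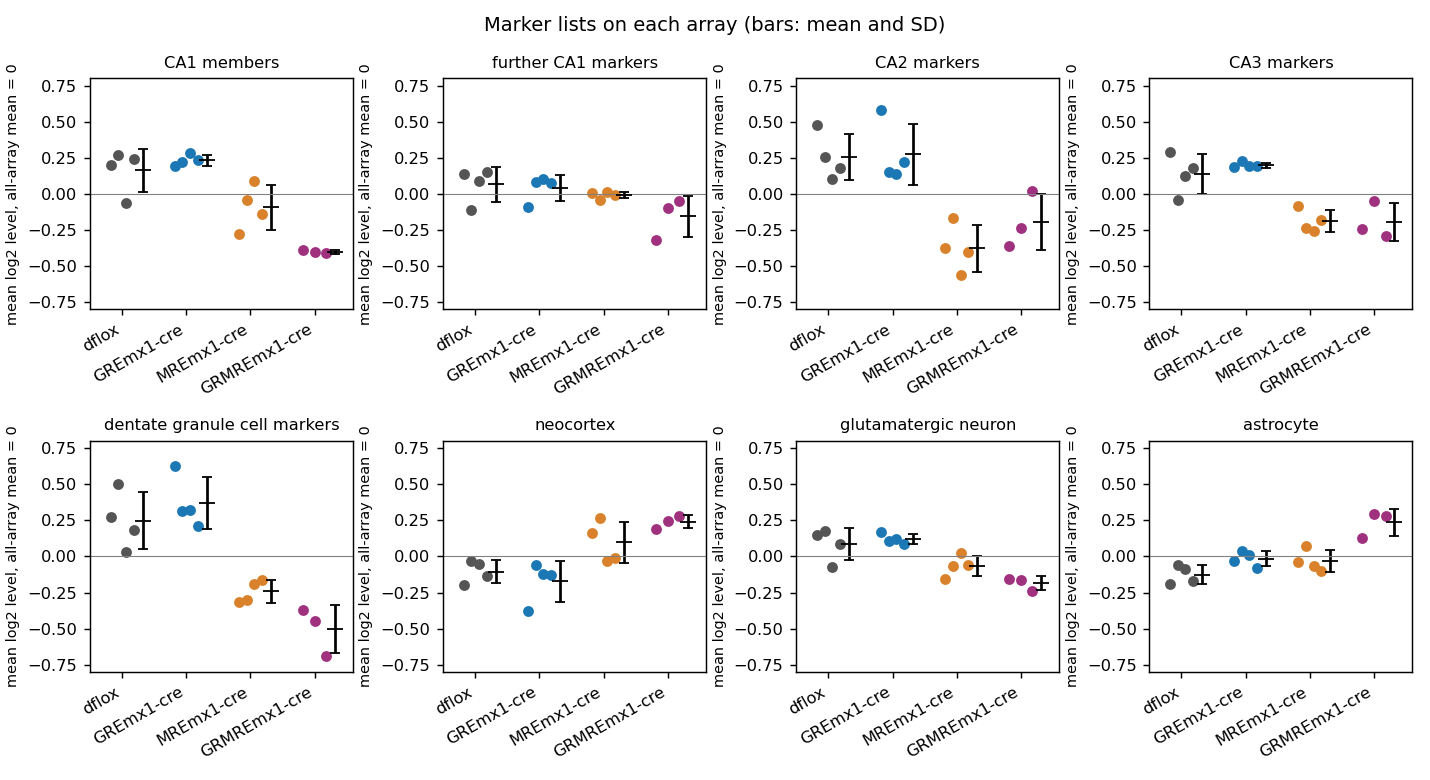
Mean level of 8 marker lists on each array (y axis, mean over the genes of a list of the log2 level minus its mean over all arrays), by genotype, with mean and SD. The CA1 members lie between -0.412 and -0.387 in GRMREmx1-cre, a distance carried by Spink8, since the mean of the other 5 lies between -0.0126 and -0.0067 there and between -0.160 and 0.0528 in dflox.

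Genes related to the members by family or process were read from the same fit. Of 22 tested genes of the endoplasmic reticulum stress response, the process that wolframin acts in, none passed in GREmx1-cre or MREmx1-cre by limma, and Dnajc3, a chaperone cofactor, fell in GRMREmx1-cre on the probe used (-0.35 ± 0.0924, adjusted p = 0.0222). Its 3 other probes did not pass (-0.17, -0.21 and -0.15, adjusted p = 0.304, 0.13 and 0.332 over all probes). Of 8 tested relatives of the mannosidase, Mpped and POU3 families, Man1c1 and Man2a1, Golgi mannosidases, rose in MREmx1-cre (0.27 and 0.21, adjusted p = 0.0242 and 0.0252) and in GRMREmx1-cre (0.24 and 0.24, adjusted p = 0.0357 and 0.0095), where both turned with normexp, to -0.34 and -0.47 relative to the median of all genes. Mpped2, Pou3f2 and Pou3f3 lay between -0.10 and 0.13 in the 3 comparisons with dflox and did not pass. Of all genes, 4.21% rose in MREmx1-cre against dflox, and 11.4% rose and 4.84% fell in GRMREmx1-cre. The members lie on different chromosomes, Spink8 on 9, Wfs1 on 5, Fibcd1 on 2, Mpped1 on 15, Pou3f1 on 4 and Man1a on 10, and none of these holds Nr3c1, Nr3c2 or Emx1. Among the genes next to the members in the RefSeq annotation, 3 passed in a comparison with dflox. The F-box gene Fbxw15 beside Spink8 rose in GRMREmx1-cre (0.97, adjusted p = 0.0204), while Spink8 fell. Of the genes on either side of Mpped1, Scube1 fell in GRMREmx1-cre (-0.68, adjusted p = 0.0416) and Efcab6 in MREmx1-cre (-0.42, adjusted p = 0.0186). The genes on either side of Wfs1, Ppp2r2c and Jakmip1, lay between -0.10 and 0.09 in the same comparisons and did not pass.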

How the data were processed

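Total RNA was labelled with Cy3 and read on Agilent mouse arrays. Per the submitters' processing notes, the scanner files came from Agilent Feature Extraction 12.0. Processed signals are intensities after background correction and the other columns used are flags, per the file headers. The value table that the authors deposited held the same intensity at 45018 of 45018 spots on each array.

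Here, log2 intensities of the 43379 spots that are not controls were set relative to the 75th percentile of their array. Outlier spots (1281 in all) were left out, and spots of a probe were averaged, giving 41174 probes. Accessions were named through a RefSeq gene table (GRCm38.p6), which gave 28215 probes 1 symbol, 0 several and 12959 none. The array design used another build, mm9, so coordinates are printed only for RefSeq promoters. A probe was kept if 3 or more arrays had it well above background, and the brightest on average stood for its gene (22872 genes). The test was limma 3.58.1 in R 4.3.3, lmFit and eBayes, with 1 mean per genotype and all 15 arrays fitted together. The scripts were checked on simulated data. The number of arrays limits the precision. Figures were drawn with matplotlib 3.10.9.

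The 6 genes, the lists and the rule for named genes were chosen with earlier results of these data known. The rule names the 6 genes, Nr3c1, Nr3c2, Calb1, the further CA1 list and the family relatives, up to 3 genes of each other list with the smallest adjusted p in GRMREmx1-cre against dflox, and the 3 genes most similar to each member. One gene of the further CA1 list is not reported here, and the list is counted without it. Neighbouring genes were named after their values were seen. Alternatives changed the background correction, the scaling, the filter on dim probes, the probe of a gene, the groups in the fit and the replicate block, and left out each array. The scanner files hold no mean signal, so normexp used the median signal (offset 50).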

Additional observations from a re-analysis of the deposited data

Results flagged for a closer look

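In 18 groups of 4 arrays, the highest and lowest arrays were compared with the others by Dixon's test, which chance alone passes about 1 time in 20. Wfs1 stood apart on MREmx1-cre replicate 1, at 4.54, while the rest of its group had 4.81 to 4.85. Without this array, Wfs1 was 0.72 above dflox in MREmx1-cre (limma's adjusted p = 0.00182). Fibcd1 was low on GREmx1-cre replicate 2, at 1.29 against 1.44 to 1.46, and without it the Fibcd1 difference of GREmx1-cre from dflox was 0.34 (limma's adjusted p = 0.0686). Man1a was low on dflox replicate 4, at 0.845 against 1.19 to 1.23, and without it the difference of GRMREmx1-cre from dflox turned to -0.02 (limma's adjusted p = 0.924). The cause of these values was not tested.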

How the results depend on the processing

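With the 8 planned settings other than leaving out arrays, Spink8 kept its falls in MREmx1-cre (-2.21 to -2.11) and GRMREmx1-cre (-3.70 to -3.07) against dflox. Leaving out each array in turn gave 0 to 1 members called in GREmx1-cre against dflox, 2 to 2 in MREmx1-cre, 2 to 3 in GRMREmx1-cre, 3 to 3 in both GRMREmx1-cre and MREmx1-cre against GREmx1-cre, 0 to 1 in GRMREmx1-cre against MREmx1-cre and 0 to 1 in the interaction. With normexp 1 member was called in MREmx1-cre against dflox (Spink8), where 105 genes were called in all, 44 higher and 61 lower. In GRMREmx1-cre against MREmx1-cre 3 were called, all lower (Spink8, Fibcd1 and Pou3f1). There 13676 genes were called in all, 10775 higher and 2901 lower. In GRMREmx1-cre against dflox and against GREmx1-cre, Wfs1 no longer passed with normexp (limma's adjusted p = 0.177 and 0.0583). In the same 2 comparisons Pou3f1 passed (-0.42 and -0.48, adjusted p = 0.0312 and 0.0206). The filter for all 15 arrays gave 2 in the interaction (Spink8 and Fibcd1). It tested fewer genes, and the standard errors were 0.369 and 0.121, against 0.381 and 0.123 in the main fit. Leaving out MREmx1-cre replicate 2 and GREmx1-cre replicate 1 together, chosen after seeing earlier results, gave 0 in GRMREmx1-cre against MREmx1-cre and turned the Wfs1 interaction to -0.040.

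In the fitted differences of the 6 genes, those that turned under the planned settings had not passed. Relative to the shifted median of all genes under normexp, the Wfs1 rise in GRMREmx1-cre turned as well (-0.16). With normexp, in GRMREmx1-cre, Mpped1 stood at -0.24 against dflox and -0.30 against GREmx1-cre, and Man1a at -0.17 against both and -0.10 against MREmx1-cre, with interactions of -0.23 for Wfs1 and -0.10 for Man1a. Quantile normalization turned Pou3f1 in GREmx1-cre to -0.0068 and Mpped1 to 0.079 in GRMREmx1-cre against MREmx1-cre and 0.068 in the interaction. Median scaling gave -0.012 for Mpped1 and -0.031 for Pou3f1 in GREmx1-cre, and -0.0083 for Man1a in GRMREmx1-cre, all against dflox. The mean of the Man1a probes gave 0.18 in MREmx1-cre against GREmx1-cre. Leaving out 1 array turned uncalled differences 17 times: the lowest and highest differences from dflox in GREmx1-cre were -0.069 to 0.34 for Spink8, -0.030 to 0.098 for Mpped1, -0.035 to 0.11 for Pou3f1 and -0.11 to 0.016 for Man1a. In GRMREmx1-cre they were -0.018 to 0.11 for Man1a against dflox and -0.044 to 0.018 for Mpped1 against MREmx1-cre. For Pou3f1 in MREmx1-cre against GREmx1-cre they were -0.0048 to 0.12, and for the interaction -0.057 to 0.082 for Wfs1 and -0.11 to 0.017 for Mpped1. The cause was not tested.

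Counts over all genes moved more than those of the members. They ran from 13 to 930 in GREmx1-cre, 105 to 1828 in MREmx1-cre and 3048 to 14129 in GRMREmx1-cre against dflox, each with normexp at the end farther from the 721, 1556 and 3719 reported. Among the knockouts they ran from 2761 to 14094 and 420 to 13676 in GRMREmx1-cre against GREmx1-cre and MREmx1-cre, 173 to 2412 in MREmx1-cre against GREmx1-cre and 1 to 360 in the interaction. Leaving out each array gave 266 to 782, 1013 to 1591, 2266 to 3904, 2077 to 3788, 230 to 758, 1438 to 2139 and 83 to 434 in the same order.

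With the replicate number, which is also the position on the slide, as a block, 2 members were called in GRMREmx1-cre against dflox, since Fibcd1 (-0.29) no longer passed, and no other member changed its call. Same-numbered arrays of different groups correlated at -0.03 to 0.19 in their deviations from the group means over 21 pairs, with 6 over 0.1. All 15 arrays correlated best with their own number, so same-numbered arrays shared a part of their deviations. The labels do not give pairs, and the main fit left the number out. Its p-values do not allow for this shared part, whose source was not tested.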
